A study of Mus musculus with 6 samples.

Results

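The expressed long noncoding RNA (lncRNA) genes of the mouse macrophage-like line RAW264.7 are described here in cells given extra Fbxw11. Members were chosen by annotation and level: every gene that the deposited table lists as lncRNA and whose FPKM averaged 5 or more across all 6 libraries. FPKM scales the fragments of a gene by its length and by the size of the library. The rule gave 104 genes out of 11288 annotated lncRNA genes, of which 4465 had a value above 0 in at least 1 library, and out of 56748 genes in all. The level was averaged over both groups together, so their levels are a description. A gene near that floor can enter through its higher group alone: 8 members had a mean under 5 FPKM in 1 group, and they are named beside the counts below.

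The cells were RAW264.7 infected with a lentivirus, either one carrying Fbxw11 from the vector pMSCV-Fbxw11-pGk-GFP (3 libraries, called Fbxw11 libraries 1 to 3) or one carrying the control vector (3 libraries, called control libraries 1 to 3). Fbxw11 is an F-box protein, the substrate-recognition subunit of a ubiquitin ligase whose known targets include the inhibitors of NF-kappaB and beta-catenin. All cells were sorted before RNA extraction, by a marker that the labels do not state. The labels name no stimulus and no separate infections or cultures, so each p-value refers to library-to-library spread alone, possibly a technical one.

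LncRNAs are transcripts without a long open reading frame. Some work as RNA in the nucleus, such as Malat1 in nuclear speckles and Neat1, the scaffold of paraspeckles; others are mainly the precursors of small RNAs, with microRNAs cut out of an exon and small nucleolar RNAs (snoRNAs) released from introns. Many more start beside or opposite a protein-coding gene and have no known role. In macrophages the best-studied example is Mir155hg, the precursor of miR-155, which NF-kappaB and AP-1 are known to induce.

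The sequences that bear on the results below are those of the small RNAs made from the risen host genes, and the start sites of the snoRNA hosts. Both microRNA hosts that rose in Fbxw11 libraries give a pair of mature microRNAs, shown 5′ to 3′ from RefSeq (GRCm38.p6) with the seed, bases 2 to 8, in capitals. No seed is shared among the 4, so each arm reads a different set of target sites.
mmu-miR-155-5p: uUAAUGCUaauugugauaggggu
mmu-miR-155-3p: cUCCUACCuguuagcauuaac
mmu-miR-22-5p: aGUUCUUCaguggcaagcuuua
mmu-miR-22-3p: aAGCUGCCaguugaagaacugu

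The snoRNA hosts are known for starts of the 5′ terminal oligopyrimidine kind, a C at the first base followed by a run of C and T, which ties the translation of such transcripts to growth signals. Below are the 10 bases before and the 20 bases from each annotated RefSeq start (GRCm38.p6) of these hosts that has such a run. The run from the first base is in capitals, and starts without a run are left out.
Gas5: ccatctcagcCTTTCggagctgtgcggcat
Snhg8: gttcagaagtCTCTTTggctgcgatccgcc
2410006H16Rik: cgccgtctttCTCTgcggccatcatgggat
1110038B12Rik: gcacacgggtCTCTTTgtgcacccgcccac
Snhg1: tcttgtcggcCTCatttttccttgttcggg
A run of at least 4 bases stood at 4 of the 13 annotated starts (30.8%) of the 10 snoRNA hosts with an entry, against 5 of 59 starts (8.47%) of all members with an entry and 1236 of 32851 (3.76%) of all starts in the table. The run of Snhg1 was shorter, and the remaining starts of these hosts had none that begins with C. At Snhg12 and at a start of Snhg17, a run of C and T stood at the first base but began with T, so it was not counted. Gas5 and 1110038B12Rik each have another annotated start, and it does not begin with a run. That of 1110038B12Rik lies a few bases before the run shown. An annotated start can lie some bases from the one used in these cells, so a missing run says only that the letters are not at that position.

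The libraries held 16191971 to 18951653 reads, recovered from the FPKM, and the members took 0.622 to 0.656% of them. Fbxw11 itself was at 35.8, 36.5 and 36.0 FPKM in control libraries 1 to 3 and at 274, 272 and 268 FPKM in Fbxw11 libraries 1 to 3. It was 7.51-fold higher in the Fbxw11 libraries (adjusted p = 8.54e-08, limma), which matches the labels. Macrophage markers were high in every library, with a summed level of 4202 to 4376 FPKM in controls and 4656 to 4783 FPKM in Fbxw11 libraries; 9 of the 10 were tested, 4 of them rose and Mertk was near 0. Of those 4, Adgre1 and Itgam passed under all 17 alternatives, while Lyz2 and Fcgr1 lost the call under 12, the TPM scale and each left-out library among them. All 8 T and NK cell markers and all 9 fibroblast and epithelial markers were below 1 FPKM, while B cell markers summed to 22.6 to 26.9 FPKM, most of it Ighm, which rose by 0.27 log2 units (adjusted p = 0.0125). The first principal component (33.8% of the variance) separated the groups, and the second (23.7%) placed library 3 of either group away from libraries 1 and 2.

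The table's own spans place the members on 20 chromosomes. Of the 104, 61 carry a Gm or Rik symbol and 20 have no symbol at all and are given by Ensembl identifier. Levels were steeply unequal: 3 members were above 100 FPKM, 2 between 50 and 100, 20 between 20 and 50, 23 between 10 and 20, and 56 between 5 and 10, with a median of 9.29 FPKM. Members were shorter (median length 1654.5 bases) and had fewer reads (median 287) than the 10898 genes tested (4032.5 bases and 584 reads).

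**Figure D1:**
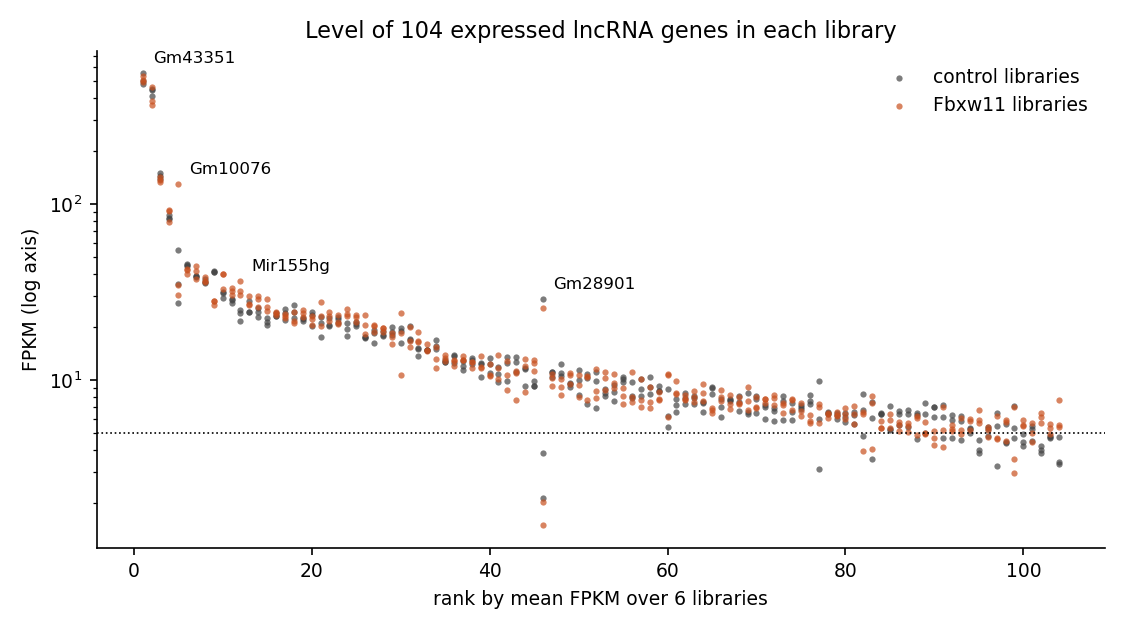
FPKM on a log axis (vertical) for each of the 104 lncRNA genes in rank order of mean level (horizontal); each point is 1 library, dark for control and orange for Fbxw11, and the dotted line marks 5 FPKM. Gm28901 and Gm10076 have libraries far apart within a group, while most members' 6 points lie close together.

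The most abundant member was Gm43351, with 481, 502 and 556 FPKM in control libraries 1 to 3 and 507, 495 and 536 FPKM in Fbxw11 libraries 1 to 3. Its mean was 513 ± 38.4 (SD, n = 3) in controls and 513 ± 21.2 (SD, n = 3) in Fbxw11 libraries, and the groups overlapped. Gm46620 followed, at 436 ± 22.4 FPKM (SD, n = 3) in controls and 406 ± 50.1 FPKM (SD, n = 3) in Fbxw11 libraries. These 2 genes held 35.5 to 40.9% of the summed FPKM of all members, and neither passed the test (adjusted p = 0.995 and 0.510, limma).

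In reads, which do not correct for length, Neat1 and Malat1 led. Neat1 held 26.7 to 30.4% of all reads of the members and Malat1 14.9 to 16.3%. Malat1 was at 150, 145 and 139 FPKM in control libraries 1 to 3 and at 138, 143 and 134 FPKM in Fbxw11 libraries 1 to 3, and the groups overlapped (log2 fold change -0.06, adjusted p = 0.425). Neat1 was at 86.7, 83.7 and 82.6 FPKM in controls and at 93.0, 91.4 and 79.5 FPKM in Fbxw11 libraries, where library 3 was below every control (0.06, adjusted p = 0.630).

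The rest of the 10 most abundant members were Gm10076, Gm42047, 4930430E12Rik, ENSMUSG00000121141, ENSMUSG00000120992 and Gm14051. Gm42047 was at 44.3 to 45.5 FPKM in controls and 39.99 to 42.6 FPKM in Fbxw11 libraries (adjusted p = 0.103). 4930430E12Rik was at 38.4 to 39.1 and 37.6 to 44.6 FPKM (adjusted p = 0.475), and ENSMUSG00000121141 at 35.8 to 37.5 and 36.1 to 38.4 FPKM (adjusted p = 0.7497). Gm14051, antisense to the ascorbate transporter gene Slc23a2, was at 29.4 to 31.8 and 32.8 to 39.9 FPKM, without overlap but short of the threshold (0.27, adjusted p = 0.0919). Gm10076 and ENSMUSG00000120992 are described below.

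Of the other genes on the list named nuclear architectural lncRNAs, Norad, which binds Pumilio proteins, came closest to the threshold. It was at 28.5, 27.3 and 28.7 FPKM in control libraries 1 to 3 and at 32.1, 33.2 and 30.5 FPKM in Fbxw11 libraries 1 to 3. The groups did not overlap, but the log2 difference of 0.18 missed the threshold (SE 0.04, adjusted p = 0.0515). Norad passed under 4 of the 17 alternatives. The name of the list does not state where each RNA lies in the cell, and that was not measured for Norad. Firre, an X-linked nuclear RNA, was even across the libraries at 5.95 to 6.56 FPKM (0.02, adjusted p = 0.811). Of 5 tested genes on this list none passed, with a median log2 fold change of 0.02. At an unadjusted p under 0.05 was 1 of the 5, against 24.6% of all tested genes. The 5 include Tug1, which averaged 13.2 FPKM (adjusted p = 0.992) but is not a member, since the deposited table does not list it as lncRNA.

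Over all members, 11 of 104 (10.6%) differed between the groups at an adjusted p of 0.05 in the limma fit, 7 higher (6.73%) and 4 lower (3.85%) in Fbxw11 libraries. The background was 9.24% of all 10898 tested genes (4.6% higher and 4.64% lower) and 11.5% of the 6432 protein-coding genes at 5 FPKM or more (6.34% higher and 5.12% lower), so the members' share lay near both. Of these 11, 4 reached the floor in 1 group only and so are members only through their higher group. The control mean was under 5 FPKM in A530040E14Rik, E330020D12Rik and ENSMUSG00000121095, and the Fbxw11 mean was under 5 FPKM in ENSMUSG00000120857. The other 4 of the 8 such members, ENSMUSG00000120328, Gm26947, Gm41724 and Gm36551, did not pass. Of the 96 members with both group means at 5 FPKM or more, 7 passed (7.29%; 4 higher and 3 lower), against 10.5% of 6746 tested genes of that kind. The count of 11 fell to 3 without control library 1, 4 without control library 2 and 5 without Fbxw11 library 2, and to 5 without the filter on low values. Groups did not overlap in 30 members (28.8%, against 31.1% of all tested genes), and 31 were at an unadjusted p under 0.05 (29.8%, against 24.6%). The members' log2 fold changes ran from -0.56 to 0.57 with a median of 0.02, against 0.003 for all tested genes. Above zero were 58 of the 104 members and 5546 of the 10898 tested genes. On a TPM scale, and with plain read sums in place of the authors' scaling, the members' split was 4 higher and 7 lower; all tested genes then split into 353 higher and 717 lower (TPM) in place of 501 and 506.

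The spread of the estimates differed with read number. The median SE of the log2 fold change was 0.12 in the 35 members with the fewest reads (9.5 to 202 on average), 0.07 in the 34 in between and 0.06 in the 35 with the most, and 2, 5 and 4 members of these sets passed. In 5 members a library had fewer than 20 reads. Among the 332 lncRNA genes with a mean of 1 to 5 FPKM, below the members' level, 15 passed (4.52%), 12 of them higher (3.61%) and 3 lower (0.904%).

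**Figure D2:**
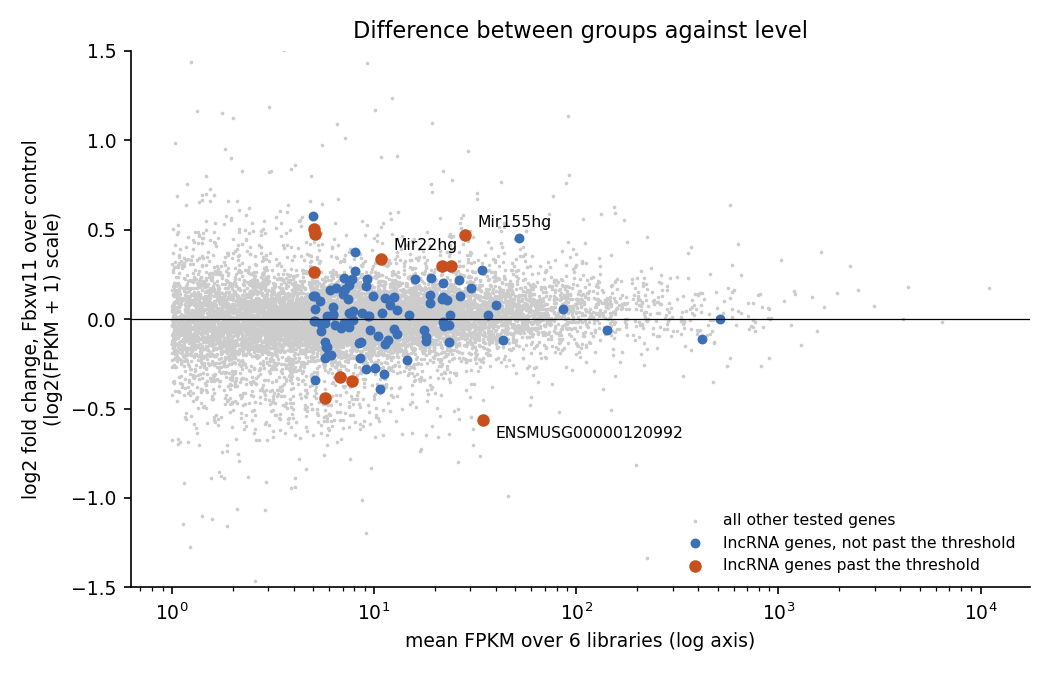
Log2 fold change, Fbxw11 over control (vertical), against mean FPKM on a log axis (horizontal) for all tested genes in grey, lncRNA genes of at least 5 FPKM in blue and the 11 past the threshold in orange; 6 tested genes lie beyond the plotted range of 1.5. The lowered member at the highest level is ENSMUSG00000120992, at -0.56.

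The smallest p among the members belonged to a lowered gene, ENSMUSG00000120992 (chr17:35215654-35219393 in the file's coordinates, minus strand), which has no symbol. It was at 41.6, 41.2 and 41.0 FPKM in control libraries 1 to 3 and at 26.7, 28.1 and 28.2 FPKM in Fbxw11 libraries 1 to 3. The 3 controls lay within 1 FPKM of each other and well above all 3 Fbxw11 libraries. It fell 1.49-fold, from 41.3 ± 0.322 to 27.6 ± 0.817 FPKM (SD, n = 3; log2 fold change -0.56, SE 0.03, adjusted p = 0.000669, limma), on 1323 to 2411 reads per library, and it passed under all 17 alternatives. Its start lies 570 bases from that of Vars, a valyl-tRNA synthetase gene transcribed the other way.

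Vars did not move with it. Vars was at 54.4, 56.8 and 60.6 FPKM in controls and at 59.5, 56.3 and 57.0 FPKM in Fbxw11 libraries (log2 fold change 0.01, adjusted p = 0.933). The log2 ratio of the lncRNA to Vars therefore differed between the groups by -0.57 (SE 0.08, adjusted p = 0.00826 over 6756 gene pairs), also under all 17 alternatives.

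Both of the named microRNA hosts among the members rose. Mir155hg (chr16:84500055-84512133, plus strand) was at 23.9, 24.9 and 21.7 FPKM in control libraries 1 to 3 and at 30.4, 32.0 and 36.3 FPKM in Fbxw11 libraries 1 to 3. Every Fbxw11 library was above every control. The rise was 1.40-fold, from 23.5 ± 1.61 to 32.9 ± 3.05 FPKM (SD, n = 3; log2 fold change 0.47, SE 0.08, adjusted p = 0.0150, limma). It rests on control library 1 and Fbxw11 library 2 for its call: without either library its adjusted p was above 0.05, up to 0.0556.

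Mrpl39, a mitochondrial ribosomal protein gene that ends 2331 bases from the end of Mir155hg on the opposite strand, was at 21.96 to 23.4 FPKM in controls and 21.8 to 23.3 FPKM in Fbxw11 libraries. Its log2 fold change was -0.01 (adjusted p = 0.927), and the log2 ratio of Mir155hg to Mrpl39 differed by 0.48 (SE 0.07, adjusted p = 0.0102). That ratio missed the threshold without library 3 of each group.

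Mir22hg (chr11:75352365-75357502, plus strand), the precursor of miR-22, was at 9.26, 9.25 and 9.90 FPKM in controls and at 11.3, 13.0 and 12.4 FPKM in Fbxw11 libraries. The groups did not overlap, and it rose 1.29-fold (log2 fold change 0.34, SE 0.06, adjusted p = 0.0189). The call did not hold under 6 of the 17 alternatives, among them leaving out control library 1, control library 2, Fbxw11 library 2 or Fbxw11 library 3. It overlaps Tlcd2 on the same strand, so reads in the shared 4962 bases cannot be told apart by position alone; Tlcd2 was at 1.34 to 1.63 FPKM in every library (0.02, adjusted p = 0.924). The ratio of Mir22hg to Tlcd2 missed the threshold (0.32, adjusted p = 0.0516).

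The mature microRNAs shown above were not measured: the gene rows Mir155 and Mir22 are listed at 0 in all 6 libraries, and the values are those of the host transcripts. By the file's coordinates 3 members hold a microRNA gene, the other being Gm11613, at 6.18 to 7.80 FPKM in controls and 7.59 to 8.79 FPKM in Fbxw11 libraries (0.19, adjusted p = 0.228). Of the 4 tested genes on the list of named microRNA hosts, 2 rose and none fell, against 4.6% higher among all tested genes, with a median log2 fold change of 0.21. These 2 calls became 0 without control library 1 or without Fbxw11 library 2, and 1 without control library 2, without Fbxw11 library 3, without library 3 of both groups or without the filter on low values. The other 2, Mir17hg and Mir142hg, were near 1 FPKM and did not pass. Of 12 tested microRNA processing genes none passed (median -0.06, 3 at an unadjusted p under 0.05 against 24.6% of all tested genes). The most abundant were Ago2, the slicing Argonaute, and Xpo5, the precursor exporter. Ago2 was at 22.2 FPKM in controls and 22.9 FPKM in Fbxw11 libraries (adjusted p = 0.520), and Xpo5 at 19.7 and 18.1 FPKM (adjusted p = 0.216).

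Another rise was shared with an overlapping gene. A530040E14Rik (chr1:85083667-85091756, plus strand) was at 3.83, 4.17 and 3.97 FPKM in controls and at 5.65, 6.45 and 6.18 FPKM in Fbxw11 libraries. The groups did not overlap, and it rose 1.53-fold (log2 fold change 0.51, SE 0.06, adjusted p = 0.00440), under all 17 alternatives too. With a mean of 5.04 FPKM it counts among the members only through its Fbxw11 libraries, so its place there is no further evidence. Its whole span of 8090 bases lies inside C130026I21Rik on the other strand, which rose from 20.2, 20.9 and 21.2 FPKM to 28.3, 28.4 and 26.0 FPKM (0.39, adjusted p = 0.00432).

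The ratio of the pair did not pass (0.11, adjusted p = 0.438). The sources used here do not say whether counting used strand, so reads of antisense partners cannot be told apart. Gm2619, whose nearest protein-coding gene is also C130026I21Rik, was at 16.1, 18.8 and 19.7 FPKM in controls and at 10.7, 24.2 and 18.4 FPKM in Fbxw11 libraries, with the lowest and the highest library both in the Fbxw11 group (-0.10, adjusted p = 0.853). Gm2619 has near-identical copies in other genes, given below.

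E330020D12Rik (chr1:153280573-153289981, minus strand) was at 4.01, 3.81 and 4.54 FPKM in controls and at 5.93, 6.71 and 5.71 FPKM in Fbxw11 libraries. All Fbxw11 libraries were above all controls, a 1.49-fold rise (log2 fold change 0.48, SE 0.08, adjusted p = 0.0138) that was lost without control library 1 or control library 2. Its neighbour Shcbp1l was below the level tested.

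Gm29340 (chr2:116803056-116806909, minus strand) was at 9.10, 8.34 and 8.94 FPKM in controls and at 6.77, 6.88 and 6.46 FPKM in Fbxw11 libraries. The Fbxw11 libraries were all below the controls, a 1.31-fold fall (log2 fold change -0.35, SE 0.05, adjusted p = 0.00817). The call was lost only without library 3 of both groups, where the adjusted p was 0.0519. D330050G23Rik, another lncRNA gene nearest to Tmco5, was at 4.99 to 5.33 FPKM in controls and 5.21 to 5.96 FPKM in Fbxw11 libraries (0.10, adjusted p = 0.330).

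The 2 other lowered members were less firm. Gm38414 was at 7.58, 8.20 and 7.29 FPKM in controls and at 5.70, 5.86 and 6.27 FPKM in Fbxw11 libraries (-0.32, adjusted p = 0.0184), lost under 6 alternatives, each of control libraries 1 and 2 and Fbxw11 libraries 1 and 2 left out among them. ENSMUSG00000120857, an annotated gene of 96 bases that lies 483 bases from Pik3ca, was at 6.97, 7.04 and 6.14 FPKM in controls and at 5.12, 4.67 and 4.28 FPKM in Fbxw11 libraries (-0.44, adjusted p = 0.0159). The groups did not overlap in either gene, but the second rests on 7 to 13 reads per library, and with weights that follow the read number (voom) its adjusted p was 0.460.

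The last 3 risen members lay close to the threshold. Gm6329 was at 20.5 to 22.4 FPKM in controls and 24.5 to 29.0 FPKM in Fbxw11 libraries (0.30, adjusted p = 0.0426), and Peak1os, antisense to the kinase gene Peak1, at 17.8 to 21.1 and 23.0 to 25.4 FPKM (0.30, adjusted p = 0.0458). ENSMUSG00000121095, antisense to the vesicular nucleotide transporter gene Slc17a9, was at 4.22 to 4.89 and 5.45 to 5.90 FPKM (0.26, adjusted p = 0.0438). Each lost its call under 10 or 11 of the 17 alternatives, the TPM scale among them. On that scale Gm42047, Hmga2-ps1 and Brip1os were called lower instead; on the authors' scale their adjusted p-values were 0.103, 0.0626 and 0.0501.

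**Figure D3:**
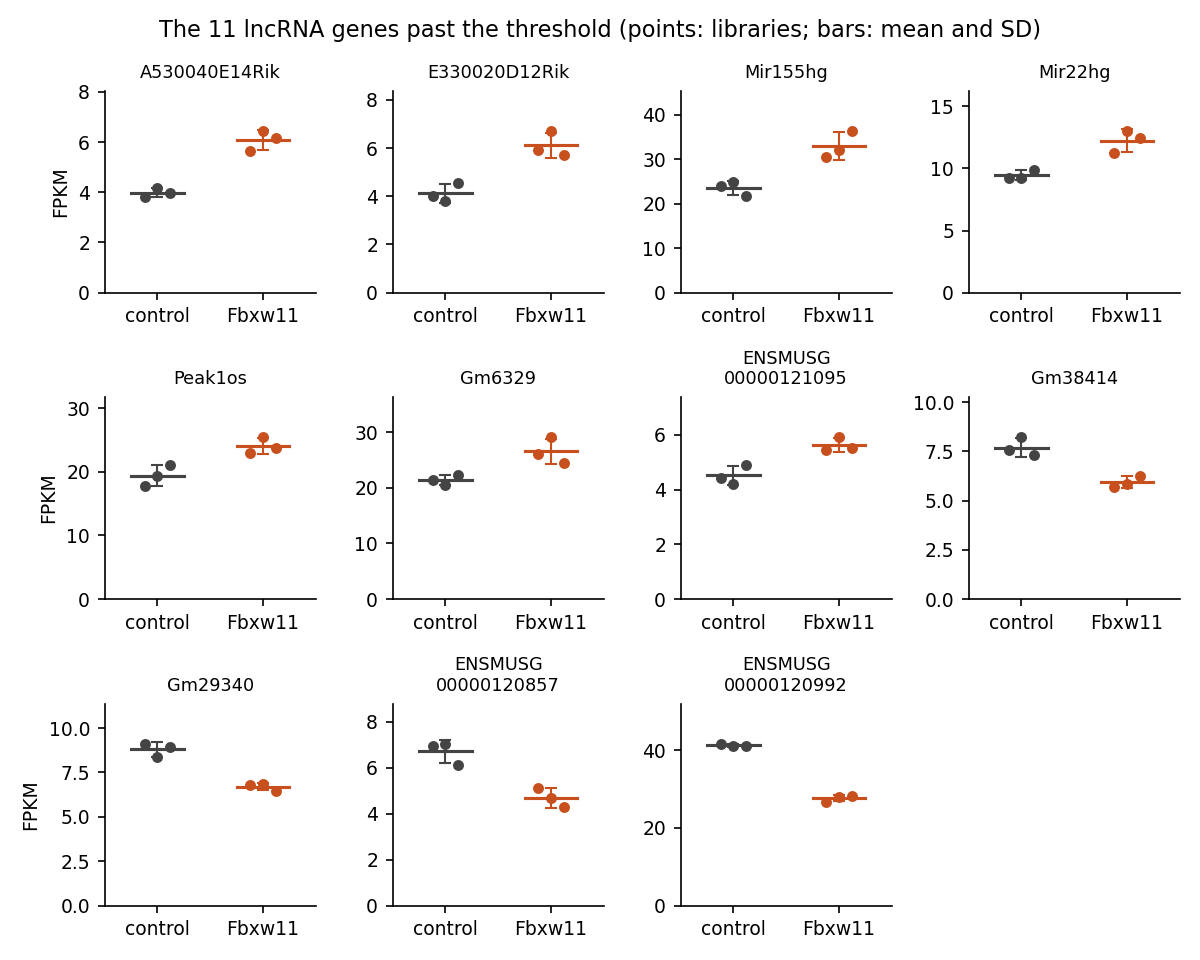
FPKM from 0 (vertical) in the 3 control and the 3 Fbxw11 libraries (horizontal) for each of the 11 lncRNA genes past the threshold; points are libraries, the horizontal line is the mean and the bar the SD. In none of the 11 panels do the groups overlap, and ENSMUSG00000120992 has the tightest controls for its level.

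No single snoRNA host gene passed the test. By coordinates 11 members hold 39 annotated snoRNA genes, of which 38 are listed at 0 in all libraries, so the values are those of the hosts. Among the 11, 1 was at an unadjusted p under 0.05 and 8 were below zero, with a median log2 fold change of -0.07. Of all tested genes 24.6% were at an unadjusted p under 0.05, and 5546 of 10898 were above zero. The summed level of the 11 hosts was 107, 102 and 98.3 FPKM in control libraries 1 to 3. It was 99.2, 100 and 90.9 FPKM in Fbxw11 libraries 1 to 3, so the groups overlapped.

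Gas5, which holds 10 snoRNA genes, was at 12.6, 11.1 and 13.6 FPKM in controls and at 11.0, 11.2 and 7.67 FPKM in Fbxw11 libraries. Fbxw11 library 3 stood below the other 5, and the difference did not pass (-0.31, SE 0.14, adjusted p = 0.248). Snhg8 was at 8.34, 6.77 and 4.80 FPKM and at 6.35, 6.58 and 3.96 FPKM, and Zfas1 at 7.18, 6.11 and 4.67 FPKM and at 5.16, 6.96 and 4.15 FPKM, so that both were lowest in library 3 of each group. Fbxw11 library 3 was the lowest of the 6 for 5 of the 11 hosts. In 1110038B12Rik the groups did not overlap, at 8.63 to 9.19 FPKM in controls and 7.64 to 8.52 FPKM in Fbxw11 libraries (-0.14, adjusted p = 0.176). They overlapped in 2410006H16Rik (15.9 to 20.1 FPKM over the 6 libraries), Gm15832 (9.13 to 10.96), Snhg17 (7.26 to 8.60), Snhg5 (6.22 to 7.36), Snhg12 (4.67 to 6.32) and Snhg15 (4.74 to 5.39), with adjusted p-values from 0.230 to 0.948.

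Snhg1, in contrast, was even: 14.8, 14.8 and 14.9 FPKM in controls and 14.5, 16.0 and 14.7 FPKM in Fbxw11 libraries (0.02, adjusted p = 0.803). Its start lies 68 bases from that of Slc3a2, the heavy chain of amino acid transporters, which rose by 0.19 log2 units (adjusted p = 0.0161), from 261 to 268 FPKM in controls to 295 to 307 FPKM in Fbxw11 libraries. The difference in their ratio was not past the threshold (-0.16, adjusted p = 0.261). Of 13 tested snoRNA-binding protein genes none passed (median -0.04, 3 at an unadjusted p under 0.05 against 24.6% of all tested genes). The most abundant were Nhp2 at 79.5 and 76.9 FPKM and Nop56 at 77.7 and 72.6 FPKM in control and Fbxw11 libraries (adjusted p = 0.716 and 0.193).

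**Figure D4:**
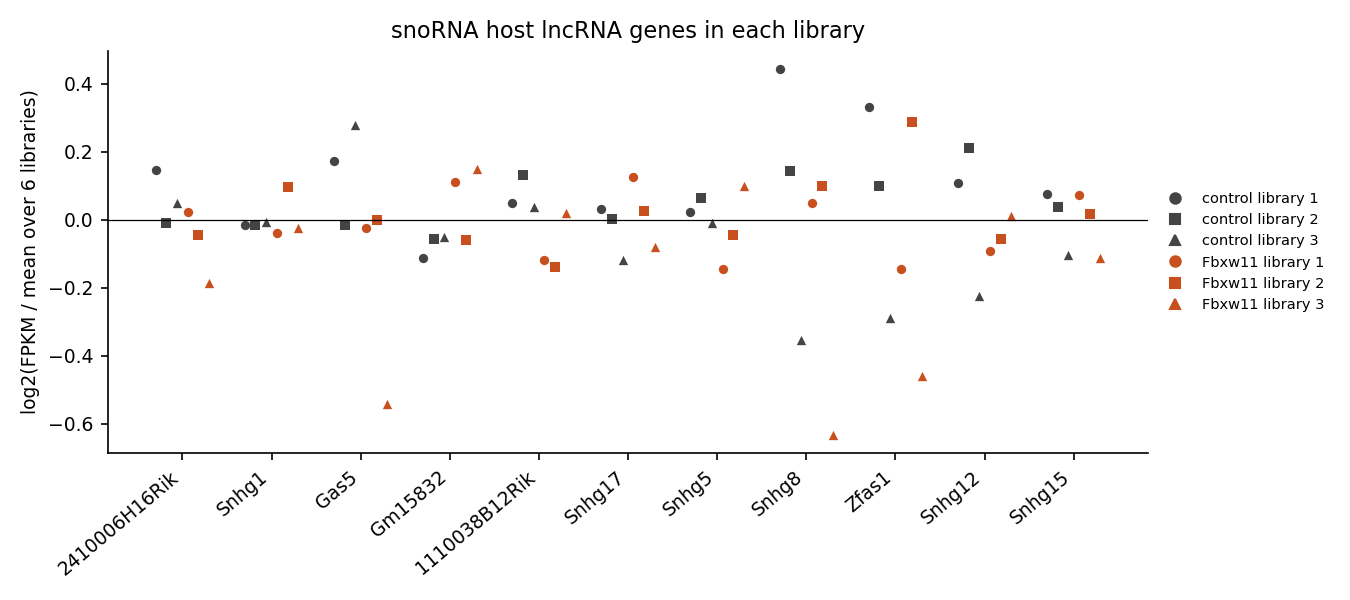
Log2 of FPKM over the gene's mean across 6 libraries (vertical) for the 11 snoRNA host lncRNA genes (horizontal); each symbol is a library, dark for control and orange for Fbxw11, with circles, squares and triangles for libraries 1, 2 and 3. Triangles lie low for Snhg8 and Zfas1 in both groups, and Fbxw11 library 3 lies lowest for Gas5.

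Several members have near-identical copies, where a read can be assigned to either gene. Among the 82 members with a transcript in GENCODE M21, 9 matched another gene at 95% identity or more over at least 50% of their length, and none of these 9 passed the test. The other 22 members were not searched, ENSMUSG00000120992 among them. A530040E14Rik, which passed, is covered over 40.1% of its length by Gm10552 at 100% identity, below that cut. Gm28901 is covered over its whole length by Hnrnpf, which encodes an RNA-binding splicing protein, at 99.6% identity. It was at 3.85, 28.9 and 2.12 FPKM in controls and at 25.6, 2.01 and 1.49 FPKM in Fbxw11 libraries, a 19.4-fold range with 1 high library in each group. Hnrnpf itself was at 97.2 to 111 FPKM in all 6.

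Gm10076 matches the ribosomal protein gene Rpl41 over 99.7% of its length at 99.5% identity. Gm10076 was at 27.5, 55.1 and 35.1 FPKM in controls and at 130, 34.7 and 30.6 FPKM in Fbxw11 libraries, while Rpl41 was at 404, 403 and 311 FPKM and at 257, 350 and 289 FPKM. The library in which Gm10076 was highest, Fbxw11 library 1, was the lowest for Rpl41. Gm7292 is identical to part of Norad over its own length. It was at 8.14 to 11.4 FPKM in controls and 7.99 to 10.7 FPKM in Fbxw11 libraries (adjusted p = 0.821), so the values of both are uncertain. Gm2619 and Gm42047 have 4 copies each and Gm46620 has 1. Their closest copies averaged 0.590, 0.0636 and 0.455 FPKM, and how reads were assigned between them was not tested.

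By position, 27 members overlap their nearest protein-coding gene on the opposite strand and 9 on the same strand, and 68 do not overlap it. Of these 68, 18 are divergent, 15 convergent and 35 on the same strand. In 78 pairs the neighbour was tested, and in 14 of these pairs the neighbour passed. Of all tested genes 9.24% passed, and of protein-coding genes at 5 FPKM or more 11.5%. Only some of the neighbours that passed are named here. The lncRNA gene and its neighbour both passed in 1 pair of 78 (1.28%, against 1.33% of all 6756 tested gene pairs), A530040E14Rik with C130026I21Rik, a member only through its Fbxw11 values. G730013B05Rik and Dubr, which share the untested neighbour Ccdc54, were at 21.7 to 22.5 and 6.38 to 6.59 FPKM in controls and at 22.8 to 24.96 and 6.03 to 6.499 FPKM in Fbxw11 libraries (adjusted p = 0.189 and 0.709).

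The log2 fold changes had the same sign in 53 of the 78 pairs (67.9%, against 52.8% of all pairs), with a Pearson r of 0.30 and a Spearman rho of 0.29 across pairs (0.12 and 0.08 across all pairs). These values describe gene pairs measured in the same 6 libraries, which are not independent, and 31 of the 78 pairs overlap and may share reads. Across the 47 pairs that do not overlap r was 0.25 and rho 0.32.

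**Figure D5:**
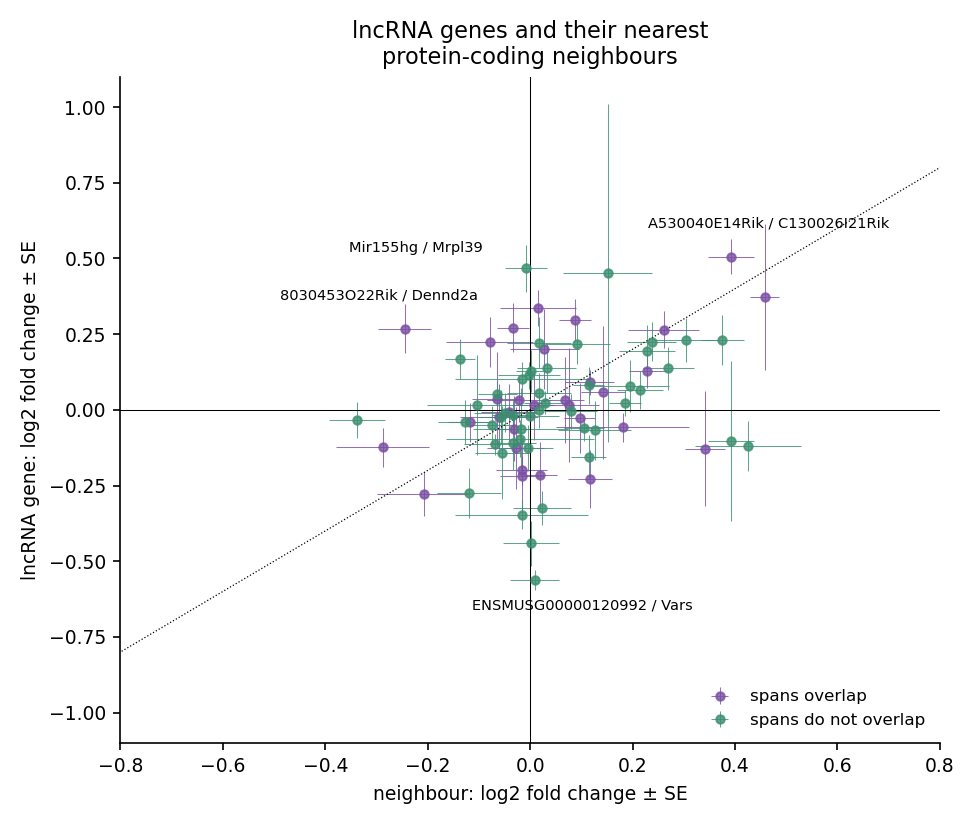
Log2 fold change with its SE of the lncRNA gene (vertical) against that of its nearest protein-coding gene (horizontal) for 78 pairs, purple where the spans overlap and green where they do not; the dotted line marks equal change. The 3 pairs whose ratio differed, at ENSMUSG00000120992, Mir155hg and 8030453O22Rik, lie far from the line, and A530040E14Rik lies near it.

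The ratio of an lncRNA gene to its neighbour differed between the groups in 3 of 78 pairs (3.85%, against 9.96% of 6756 pairs). Besides ENSMUSG00000120992 with Vars and Mir155hg with Mrpl39, this was 8030453O22Rik with Dennd2a, a Rab exchange factor gene it overlaps in antisense. 8030453O22Rik was at 6.58, 7.75 and 7.20 FPKM in controls and at 8.45, 8.27 and 9.85 FPKM in Fbxw11 libraries, without overlap, but did not pass alone (0.27, adjusted p = 0.0927). Dennd2a fell by 0.24 on the log2 scale (adjusted p = 0.0342), and the ratio differed by 0.51 (SE 0.07, adjusted p = 0.00936), a call lost without library 3 of each group.

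At Ptgs2, which encodes the inducible cyclooxygenase, an lncRNA was present on each side. Ptgs2 was at 1400 to 1436 FPKM in controls and rose to 1767, 1842 and 1923 FPKM in Fbxw11 libraries (0.38, adjusted p = 0.00399). Ptgs2os2, 50816 bases away and convergent, was at 17.6, 17.4 and 17.3 FPKM in controls and at 18.3, 20.5 and 23.4 FPKM in Fbxw11 libraries. Every Fbxw11 library was above every control, but the difference did not pass (0.23, SE 0.08, adjusted p = 0.147), and neither did the ratio to Ptgs2 (-0.15, adjusted p = 0.418).

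Ptgs2os, which starts 68 bases from Ptgs2 in the other direction, lies under the level that defines the members. It was at 1.15, 1.18 and 1.20 FPKM in controls and rose 1.74-fold, to 1.83, 2.12 and 2.20 FPKM (0.48, adjusted p = 0.0112). At this level the log2 value understates the change, so it cannot be set directly beside that of Ptgs2. It was the only 1 of 7 tested genes on the list of innate immunity and p53 lncRNAs to pass (median 0.06). At an unadjusted p under 0.05 were 3 of the 7. Of all tested genes 9.24% passed and 24.6% were at an unadjusted p under 0.05. The list also holds Gm2a, which is annotated as protein-coding.

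Other neighbours of the members rose where the lncRNA did not pass. Oasl1, an interferon-induced gene of the oligoadenylate synthetase family, was at 185 to 189 FPKM in controls and rose to 257 to 260 FPKM (0.46, adjusted p = 0.000669). Gm13822, which shares 38 bases with it in antisense, was at 6.21, 8.85 and 5.40 FPKM and at 10.7, 10.8 and 6.12 FPKM, with overlapping groups (0.37, SE 0.24, adjusted p = 0.393). Znfx1, an antiviral helicase gene that starts 81 bases from Zfas1 and overlaps its span, rose by 0.34 (adjusted p = 0.00432). The ratio of Zfas1 to Znfx1 did not pass (-0.47, SE 0.21, adjusted p = 0.230). Whether this pair shares reads was not tested.

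Slfn3, of the Schlafen family, fell by 0.34 on the log2 scale (adjusted p = 0.0136) while AI662270, 8422 bases away on the same strand, was at 21.8 to 25.4 FPKM in controls and 22.4 to 23.8 FPKM in Fbxw11 libraries (-0.03, adjusted p = 0.771). The ratio of this pair was just short of the threshold (0.30, adjusted p = 0.0522).

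Lists of proteins that act with these RNAs were also read from the same fit. Of all tested genes 9.24% passed, with 4.64% lower, and 24.6% were at an unadjusted p under 0.05. The shares called on the 2 lists below were not above these. Of 25 paraspeckle and nuclear speckle protein genes 1 fell and none rose (5 at an unadjusted p under 0.05, median -0.04). The gene was Srrm1, a splicing coactivator of speckles, at 24.0, 24.6 and 22.9 FPKM in controls and 20.3, 19.9 and 21.03 FPKM in Fbxw11 libraries (-0.21, adjusted p = 0.0249), and 6 alternatives lost the call. Of 29 genes of nonsense-mediated decay and the nuclear exosome, which degrade many lncRNAs, 1 fell and none rose (7 at an unadjusted p under 0.05, median -0.04). This was Dis3, an exosome ribonuclease, at 18.4, 17.7 and 17.2 FPKM and 14.2, 14.8 and 15.4 FPKM (-0.25, adjusted p = 0.0196), and 5 alternatives lost it.

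Promoter windows of 300 bases, 250 before and 50 after a start, were in the RefSeq table (GRCm38.p6) for 43 members, with 59 windows in all. Both strands were searched. AP-1 sites (TGANTCA) were in 8.47% of the members' windows and 7.81% of all 32851, interferon-stimulated response elements (GAAA, any 2 bases, GAAA) in 5.08% and 3.44%, CREB sites (TGACGTCA) in 3.39% and 1.79%, E-boxes (CACGTG) in 6.78% and 7.15%, and the kappaB consensus in 3.39% and 4.51%. None of the 6 windows of risen members, those of Mir155hg and Mir22hg included, held any of the 5 motifs, and no lowered member had a window. A match or its absence in such a window describes these letters only.

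At the edge of the rule, the 3 lncRNA genes just below were Gm35082 at 4.83, Gm13963 at 4.86 and ENSMUSG00000121121 at 4.89 FPKM, and the 3 just above were Gm41724 at 5.006, Gm26947 at 5.009 and A530040E14Rik at 5.04 FPKM.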

How the data were processed

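RNA-seq of 3 control and 3 Fbxw11 libraries was read from a table of FPKM that the authors deposited, with each gene's biotype, length and span. Per the submitters' processing notes the build was mm10, but the spans do not follow it, so coordinates are the file's own, their build not stated. For aligner, counting tool, strand setting and kit selection, each was not given in the sources used here. FPKM times gene length gave whole reads for 100% of values (within 0.02 reads). The implied library size was 1.014 to 1.018 times the read sum in controls and 0.987 to 0.993 times in Fbxw11 libraries, so the authors' scaling differed by group. Reads carry no molecular identifiers, and their number covers counting error only.

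The deposited FPKM were analysed as log2(FPKM + 1) for the 10898 genes averaging 1 FPKM or more, with limma 3.58.1 (R 4.3.3; lmFit, eBayes with trend; two-sided; Benjamini-Hochberg over all tested genes; threshold 0.05). Fold changes on this scale understate changes of low genes. FPKM ratios are given for some of them only, so log2 values of a low and an abundant gene are not directly comparable. The fit was tested on simulated data. The neighbour of a gene is the protein-coding gene at the smallest distance between spans, and the log2 ratio to it was fitted the same way over 6756 pairs. Copies were sought with blastn 2.17.0 in GENCODE M21. Sequences come from RefSeq (GRCm38.p6): 43 members matched the promoter table. Named were the 10 most abundant members, those past the threshold, those on lists, those sharing a neighbour, genes at the 5 FPKM edge and, of the neighbours, those a result involves; 8030453O22Rik, AI662270, Gm13822, the copied genes, Hmga2-ps1 and Brip1os were named after their values were seen. Members and lists were chosen with earlier results of these data known. The main fit did not pair libraries by replicate number. Of the same-numbered libraries, only the libraries 3 were each other's best match (r = 0.19).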

Additional observations from a re-analysis of the deposited data

How the results depend on the processing

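Across 17 alternatives no called gene turned direction, but the members' median, 0.02, changed sign under 3 of them, given below, and their split turned under both other scalings; of the single-gene comparisons 879 kept direction and side of the threshold, 60 lost it and 10 gained it. The cause was not tested where counts moved. Counts below are genes past the threshold against 1007 of all genes (501 higher, 506 lower) and 11 members (7 higher, 4 lower).

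Without a filter on low values, which tests more genes, 596 genes passed (289 higher, 307 lower) with 5 members (3 higher, 2 lower), 1 microRNA host and 0 paraspeckle genes. A floor of 3 FPKM gave 7 ratio pairs, 1 gene of the architectural list (Norad) and 0 of the immunity list. A robust prior also gave 1 gene of the architectural list (Norad). The TPM scale gave 4 members higher and 7 lower, 3 paraspeckle genes, 2 snoRNP genes and a members' median log2 fold change of -0.018; plain read sums gave 4 higher, 7 lower, 3 paraspeckle genes and -0.012. Voom on recovered reads gave 5 ratio pairs, 1 gene of the architectural list (Norad) and 2 of the immunity list. It also gave 3 paraspeckle, 2 decay and 1 microRNA processing gene. Without library 3 of both groups, chosen after seeing the data, 336 genes were lower, with 1 ratio pair, 1 microRNA host, 0 of the immunity list, 1 snoRNP gene and a median of -0.015.

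With 1 library left out, 409 to 801 genes passed (190 to 418 higher, 219 to 383 lower), with 3 to 11 members (1 to 7 higher, 2 to 5 lower), 1 to 2 pairs with both genes, 3 to 4 ratio pairs, 0 to 1 architectural, 0 to 2 microRNA host, 0 to 1 immunity, 0 to 1 paraspeckle and 0 to 1 decay gene, and a median of 0.013 to 0.052. The members' count was 3 without control library 1, 4 without control library 2 and 5 without Fbxw11 library 2. With the replicate number as a block, 621 genes passed (303 higher, 318 lower), 8 members of which 7 were among the 11, 5 ratio pairs and 0 paraspeckle genes; same-numbered libraries deviated together with r = 0.04, 0.04 and 0.19, and of these pairs only the libraries 3 were each other's best match. edgeR and DESeq2 were not run, since the table holds FPKM. Of the members, 24 had fewer than 100 reads in a library.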

Other observations

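Below the level that defines the members, 332 lncRNA genes had a mean between 1 and 5 FPKM, and 15 of them passed (4.52%, against 9.24% of all tested genes), 12 higher and 3 lower. The genes named here were chosen after their values were seen. 6530402F18Rik was at 2.05, 2.11 and 2.26 FPKM in controls and at 3.38, 3.38 and 3.48 FPKM in Fbxw11 libraries (log2 fold change 0.49, adjusted p = 0.00361, limma), and Ntng2, which it overlaps on the same strand, rose by 0.58 (adjusted p = 0.00451). Gm16028, like A530040E14Rik, lies opposite C130026I21Rik and rose by 0.43 (adjusted p = 0.00859). 4933432I03Rik rose by 0.52 (adjusted p = 0.0290) 4775 bases from Kctd12, which rose by 0.54 (adjusted p = 0.00309). Gm10802 rose by 0.61 (adjusted p = 0.0421), and Slc15a3, the peptide and histidine transporter gene it overlaps in antisense, rose by 0.60 (adjusted p = 0.00102). The log2 values understate the changes of such low genes. In FPKM, 6530402F18Rik rose 1.60-fold, Gm16028 1.44-fold, 4933432I03Rik 1.56-fold and Gm10802 1.76-fold. Of the 12 risen genes, 8 had a tested neighbour, and 6 of these neighbours rose. Of all tested genes 4.6% rose, which is not a like comparison. How often the neighbour of a risen gene rises among all pairs was not counted. Among the 6, Ntng2, C130026I21Rik, Srcin1 and Slc15a3 overlap the lncRNA gene. 2010320M18Rik and Gm15347 rose beside Pik3r2 and Atp11a, at -0.02 and 0.02. Gm15347, on 4 to 13 reads per library, averaged 0.851 FPKM in controls and 1.88 FPKM in Fbxw11 libraries. It was therefore tested only through its Fbxw11 values. Whether overlapping pairs share reads was not tested. The lowered ones were Gm14302, Gm15856 and Gm41077, at -0.33, -0.49 and -0.42, on 11 to 40 reads per library, and they lost the call under 9, 9 and 11 of the 17 alternatives. None of their 3 neighbours passed. Gm41077 averaged 1.29 FPKM in controls and 0.710 FPKM in Fbxw11 libraries, so it was tested only through its control values. Of the risen genes named here, 6530402F18Rik kept its call under all 17, Gm16028 lost it under 1, 4933432I03Rik under 4, Gm10802 under 7, and 2010320M18Rik and Gm15347 under 8 each.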
